A study of Mus musculus with 12 samples.

Results

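The genes described here are Pex16 and Gcsam and 5 genes that lie beside them on the mouse genome: Large2, Phf21a and Mapk8ip1 around Pex16, and Slc9c1 and Cd200 around Gcsam. These 7 of 32248 gene symbols were taken from the count tables by symbol. Pex16 and Gcsam were selected on their counts, which were higher in P815-IFNG than in P815-M tumors, both lit and unlit, so their difference between the lines is given as a description with no test. The 5 neighbours were taken for their position, to see how far along each locus the difference reached. Of the 7 genes, 6 had enough counts to be tested, and Slc9c1 did not.

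The tumors grew in DBA/2 mice that were 9 to 10 weeks old at implantation by the study's methods, 1 subcutaneous tumor in each. P815 is a mouse mastocytoma line, a tumor of mast cells. P815-IFNG cells carry, as PiggyBac insertions, GAVPO (a transcription factor switched on by blue light) with blasticidin resistance behind the EF-1α promoter, an UAS-driven module of Ifng, Cxcl10 and Gaussia luciferase, and mRuby with firefly luciferase. P815-M cells carry only mRuby with firefly luciferase. Mice of the light groups were lit in a 12 h light and 12 h dark cycle for 6 days by the labels, starting 7 days after implantation, and mice of the dark groups were not lit, with 3 mice in each of the 4 groups. Each line is 1 single-cell clone, so that the module and the clone cannot be told apart in any comparison of the lines.

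The product of Pex16 sits in the peroxisome membrane and brings in Pex3, which together with Pex19 inserts other membrane proteins, and cells without it form no peroxisomes. Large2 adds sugar repeats to α-dystroglycan, the receptor that binds cells to laminin. Phf21a is the histone-reading subunit of the LSD1-CoREST repressor, and Mapk8ip1 is a scaffold that holds the kinases of the JNK pathway together. Gcsam is an adaptor protein of germinal center B cells that acts on B cell receptor signaling and cell motility. Slc9c1 is a sodium and proton exchanger of sperm, and Cd200 is a surface protein that quietens myeloid cells through the receptor Cd200r1.

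The genes lie on chromosomes 2 and 16, with coordinates of GRCm38 (mm10) from 1. Pex16 is at chr2:92374676-92381217 on the + strand, and Large2 at chr2:92365046-92374869 on the - strand. They start head to head and share 194 bases, 127 of them in exons of both. Mapk8ip1 (chr2:92383676-92401263, - strand) ends 2458 bases beyond Pex16, and Phf21a (chr2:92093117-92364666, + strand) ends 379 bases before Large2. Gcsam is at chr16:45610380-45622867 on the + strand. Slc9c1 (chr16:45535309-45607001, + strand) ends 3378 bases before it, and Cd200 (chr16:45382135-45409053, - strand) 201326 bases before it. The map by distance shows both neighbourhoods with the difference between the lines of each gene.

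**Figure D1:**
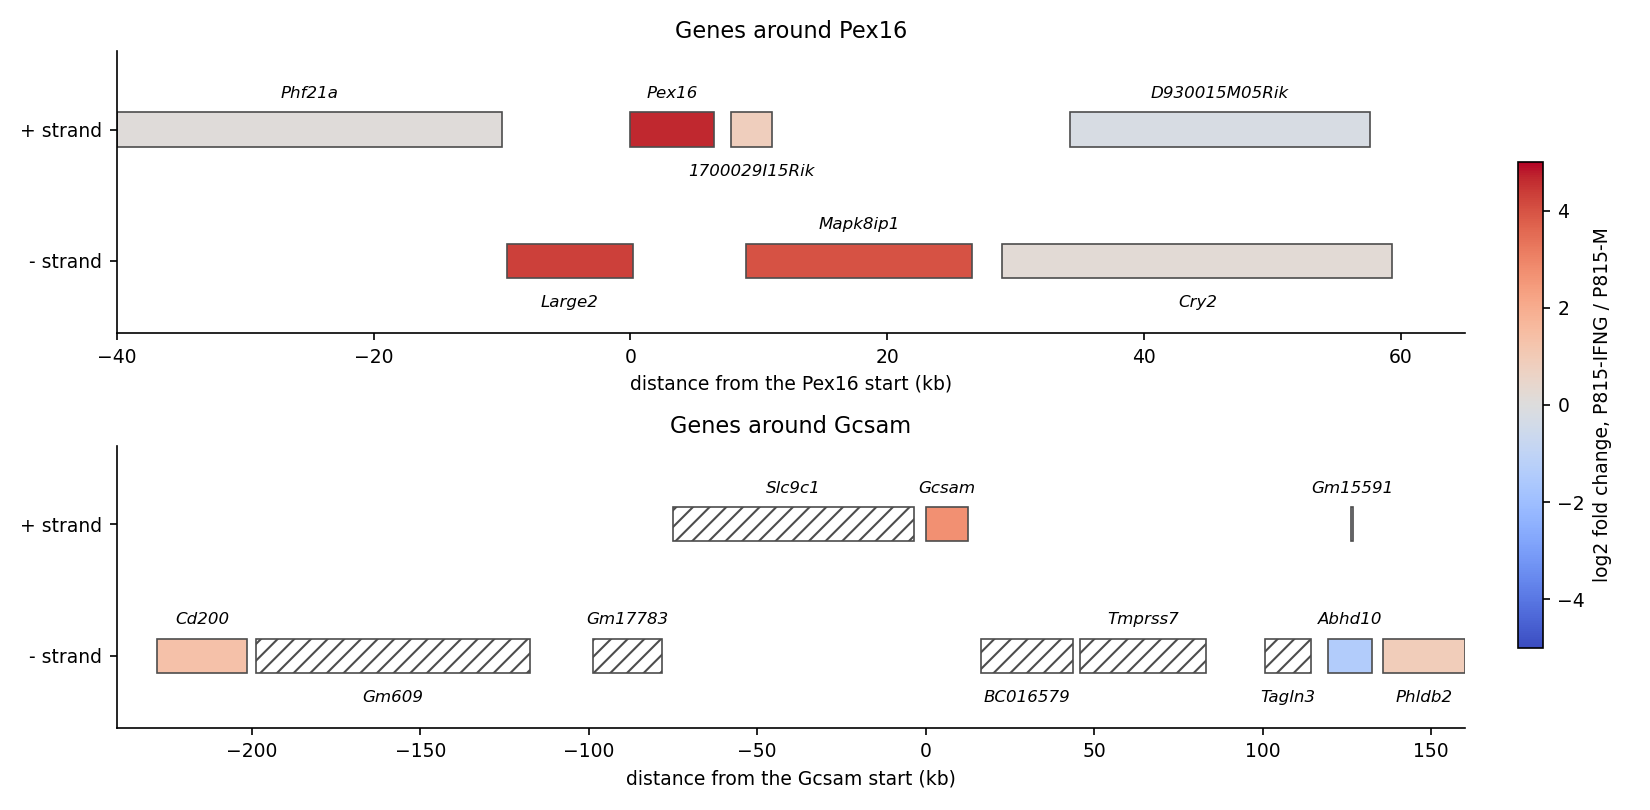
Genes around Pex16 and Gcsam by distance from the start of each (kb) and by strand, coloured by the log2 fold change of P815-IFNG over P815-M over light and dark in the 10 libraries up to 10000000 counts. Hatched genes were not tested or, for BC016579, are given no fold. Large2, Pex16 and Mapk8ip1 are the strongly coloured genes of the upper map, and Gcsam that of the lower.

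The windows around the annotated starts of Pex16 and Gcsam are shown. The start of Large2, at chr2:92374869, lies between the Pex16 windows and in neither of them. RefSeq windows (GRCm38.p6) of 300 bases were matched for 5 of the 7 genes, but not for Large2 or Mapk8ip1. The 50 bases from each start on are in capitals. The first Pex16 window, chr2:92374426-92374725 on the + strand, lies with all its 300 bases inside Large2, the second is chr2:92374989-92375288 and the Gcsam window chr16:45610190-45610489, both also on the + strand.
Pex16, first start: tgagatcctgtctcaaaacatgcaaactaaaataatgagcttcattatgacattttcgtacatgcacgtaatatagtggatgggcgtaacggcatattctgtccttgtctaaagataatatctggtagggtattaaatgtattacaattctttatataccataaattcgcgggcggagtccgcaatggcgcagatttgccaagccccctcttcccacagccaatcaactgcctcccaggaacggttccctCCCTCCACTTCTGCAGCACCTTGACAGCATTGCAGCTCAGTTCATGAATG
Pex16, second start: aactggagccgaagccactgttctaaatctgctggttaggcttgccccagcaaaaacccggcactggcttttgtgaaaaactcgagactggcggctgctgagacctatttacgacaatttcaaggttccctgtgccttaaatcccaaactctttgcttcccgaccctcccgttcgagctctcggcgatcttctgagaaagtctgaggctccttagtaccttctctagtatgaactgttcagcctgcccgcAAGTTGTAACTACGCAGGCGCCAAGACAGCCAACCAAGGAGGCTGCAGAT
Gcsam: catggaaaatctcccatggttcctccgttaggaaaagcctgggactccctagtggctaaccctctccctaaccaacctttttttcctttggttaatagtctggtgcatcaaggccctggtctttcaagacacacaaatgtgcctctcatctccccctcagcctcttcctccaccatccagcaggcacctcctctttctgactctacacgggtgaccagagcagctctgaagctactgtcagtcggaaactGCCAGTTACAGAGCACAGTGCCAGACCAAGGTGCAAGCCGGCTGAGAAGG

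Of the 12 libraries, 10 held 2211234 to 2946792 counts, whereas the third replicate of P815-IFNG light held 41473500 and that of P815-IFNG dark 42338096. The deep pair also stood apart in what was counted: mt-Nd6, the only mitochondrial protein-coding gene on its strand, took 3.56% and 3.85% of the mitochondrial protein-coding counts there, and 29.0% to 47.9% in the other 10. The summed level of 14 mast cell markers was 10959 to 14475 CPM in the deep pair and 2210 to 3713 CPM in the 10 (CPM, counts per 1000000 non-mitochondrial counts of the library). The labels name a kit that marks strand and the authors counted with default settings. Whether a row's counts come from RNA of the gene's own strand in each library was not tested. Therefore, groups were compared over the 10 libraries (2 of P815-IFNG in light, 2 of it in dark, and 3 and 3 of P815-M), and the deep pair is given apart. A count of 3, taken as the floor for counting error, was 1.05 to 1.39 CPM in the 10 and 0.0744 to 0.0774 CPM in the deep pair.

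The knock-in rows followed the labels of the lines. GAVPO_bla had 441 to 548 CPM in the 4 P815-IFNG libraries and 0 to 1.59 CPM in the 6 P815-M libraries. The cytokine row, mINFg_mCXCL10_hGulc, held 2.16 to 4.51 CPM in P815-IFNG, and in P815-M it was at 0 in 5 libraries and at 2 counts (0.790 CPM) in 1. The reporter row mRuby3_luciferase, which both lines carry, ranged from 52.0 to 111 CPM in P815-IFNG and from 37.3 to 73.5 CPM in P815-M, with overlap.

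Among the 4 tested neighbours, Large2 and Mapk8ip1 were called higher in P815-IFNG in light, in dark and over both, where called means an adjusted p of at most 0.05 and a change of at least 1 on the log2 scale. Of all 16941 genes tested, 0.136% were called higher in light, 1.6% in dark and 0.98% over both. Of all tested genes, 4.04% had every P815-IFNG library above every P815-M library, as Large2, Mapk8ip1 and 1700029I15Rik did. Pex16 and Gcsam also did, but they were chosen on this difference. BC016579 did too, but it passed the count filter through P815-IFNG alone. With 2 P815-IFNG libraries per group, these p-values rest on the spread that all groups share and on spread that edgeR borrows from the other genes. The total of 15.6 degrees of freedom for Large2 and Mapk8ip1 is more than 10 libraries give by themselves.

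Pex16 was abundant in every P815-IFNG tumor and low in every P815-M tumor. It had 199.5 and 226 CPM in the P815-IFNG light libraries and 225 and 233 CPM in P815-IFNG dark. In P815-M it had 6.90, 7.01 and 9.20 CPM in light and 10.7, 5.52 and 7.16 CPM in dark. No P815-IFNG library came near the P815-M range, and within each line the light and dark tumors lay close together. The means were 221 ± 14.8 CPM (SD, n = 4) in P815-IFNG and 7.74 ± 1.85 CPM (SD, n = 6) in P815-M. The log2 fold change of P815-IFNG over P815-M was 4.70 (SE 0.22) in light and 4.66 (SE 0.22) in dark. These are the values on which the gene was chosen. The deep pair, with 334 and 341 CPM, was higher still, and all 12 libraries together gave 4.89 over light and dark, against 4.68 (SE 0.16) in the 10.

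Large2, which starts head to head with Pex16, was higher in P815-IFNG by about as much. Its level was 194 and 335 CPM in P815-IFNG light and 177 and 216 CPM in P815-IFNG dark. P815-M light had 5.98, 7.89 and 14.5 CPM, and P815-M dark 14.6, 10.6 and 8.35 CPM. The lowest P815-IFNG library was far above the highest P815-M library. The log2 fold change was 4.33 (SE 0.22) over light and dark, with an adjusted p of 9.3e-09 by edgeR's quasi-likelihood test, 4.73 in light and 3.93 in dark. The deep pair held only 24.4 and 30.5 CPM, above all P815-M libraries but far below the other P815-IFNG libraries, a log2 ratio of -3.07 of their means. With all 12 libraries and no batch term, the log2 fold change of Large2 was 3.84 and the call was lost (adjusted p = 0.0932 by edgeR's test), and with a term for the deep pair it was 4.34.

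Mapk8ip1, downstream of Pex16 and on the opposite strand, was also called higher. It had 42.2 and 80.2 CPM in P815-IFNG light and 64.2 and 67.1 CPM in P815-IFNG dark. The P815-M libraries had 2.76, 2.63 and 5.26 CPM in light and 1.58, 2.76 and 5.97 CPM in dark, some of them not far above the floor. The lines did not overlap. The log2 fold change was 4.02 (SE 0.28) over light and dark, with an adjusted p of 6.2e-07 by edgeR's test, and 4.02 in light and in dark alike. In the deep pair it was lower, at 11.3 and 17.7 CPM, a log2 ratio of -2.13 to the other P815-IFNG libraries. All 12 libraries with no batch term gave 3.59 without a call (edgeR adjusted p = 0.0599), and 4.03 with a term for the deep pair.

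Both genes that were called beside Pex16 lie on the - strand, opposite to Pex16, and both were lower in the deep pair, where Pex16 was higher by a log2 ratio of 0.61. RNA of a gene itself and RNA read from the opposite strand cannot be told apart in these counts. This holds for Large2 and Mapk8ip1 and equally for the other rows, Pex16, Gcsam, Phf21a and Cry2 among them. Other rows of the locus also differed between the deep pair and the other P815-IFNG libraries, here chosen after their values were seen. D930015M05Rik, which lies opposite Cry2 with 295 shared exon bases, had a log2 ratio of -3.95 between them, and Gm13780, which runs into Phf21a on the other strand, one of -4.03. Phf21a, Cry2 and 1700029I15Rik were higher in the deep pair, by 0.60, 0.38 and 1.51. The plot of the deep pair against the other libraries shows that the order of the genes in the locus depended on which libraries were read.

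**Figure D2:**
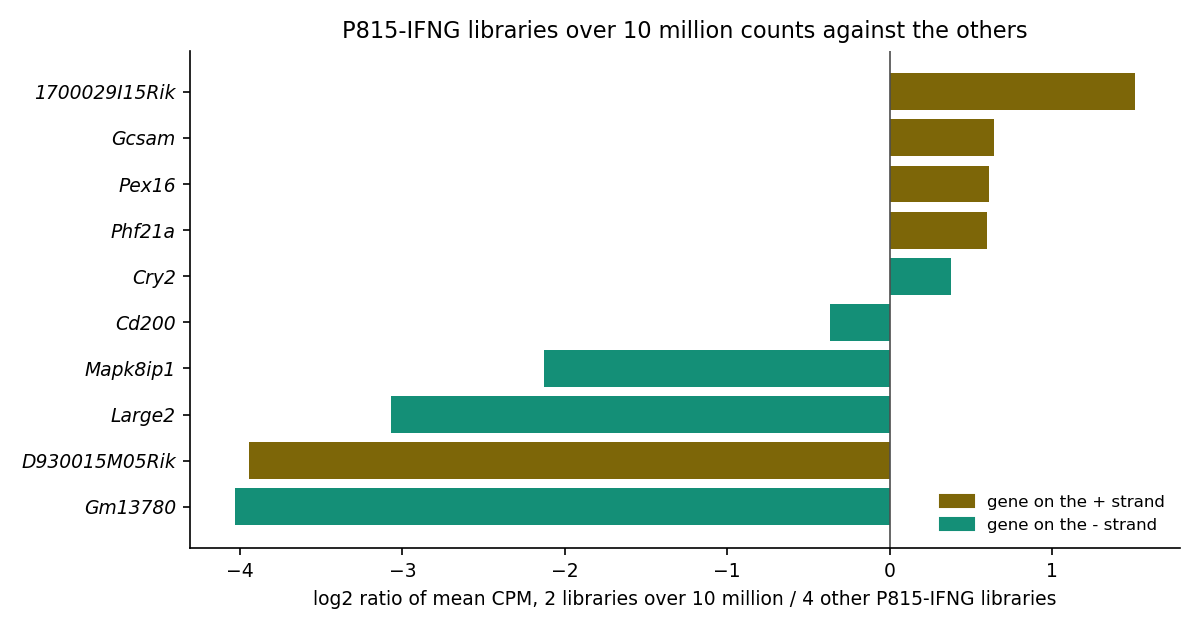
Log2 ratio of the mean CPM of the 2 P815-IFNG libraries over 10000000 counts to that of the 4 other P815-IFNG libraries, for genes of both loci, with bars coloured by strand. Pex16, Gcsam and Phf21a lie near 0.6, Mapk8ip1 at -2.13 and Large2 at -3.07.

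Phf21a, the neighbour beyond Large2, did not differ between the lines past the threshold. It had 22.9 and 23.2 CPM in P815-IFNG light and 31.8 and 31.4 CPM in P815-IFNG dark, against 25.3, 20.2 and 22.3 CPM in P815-M light and 26.1, 15.6 and 26.6 CPM in P815-M dark. The groups overlapped. Its log2 fold change over light and dark was 0.11 (SE 0.17; 95% interval -0.26 to 0.47; edgeR adjusted p = 0.790), an interval that ends well below a 2-fold difference, and 0.31 with all 12 libraries. The deep pair had 39.6 and 43.3 CPM.

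On the other side, the first gene beyond Mapk8ip1 is Cry2, a repressor of the circadian clock, 2382 bases away. Cry2 ranged from 19.0 to 30.7 CPM in P815-IFNG and from 10.6 to 26.1 CPM in P815-M, and its log2 fold change was 0.22 (SE 0.22; 95% interval -0.25 to 0.69; edgeR adjusted p = 0.634). So Pex16 and its called neighbours lay within 36.2 kb, from Large2 to Mapk8ip1, and neither flanking gene was called. For all of these rows, Phf21a and Cry2 included, RNA of the opposite strand cannot be told apart from their own, as given above. In the deep pair, Phf21a (39.6 and 43.3 CPM) and Cry2 (30.6 and 31.6 CPM) were above every P815-M library. No P815-M library of that depth was analysed, so the stretch of 36.2 kb is given for the 10 libraries only. Within that stretch, 1700029I15Rik lies 1320 bases beyond Pex16 on the same strand and shares 96 exon bases with Mapk8ip1. It had 28.3 and 20.4 CPM in P815-IFNG light and 20.2 and 23.8 CPM in P815-IFNG dark. The P815-M tumors had 15.6, 20.2 and 12.3 CPM in light and 5.14, 12.4 and 8.35 CPM in dark. Every P815-IFNG library was above every P815-M library, with the edges of both at 20.2 CPM, and the log2 fold change of 0.83 (SE 0.25) was not called (edgeR adjusted p = 0.0663), except without P815-M dark replicate 2, where it was 1.04.

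**Figure D3:**
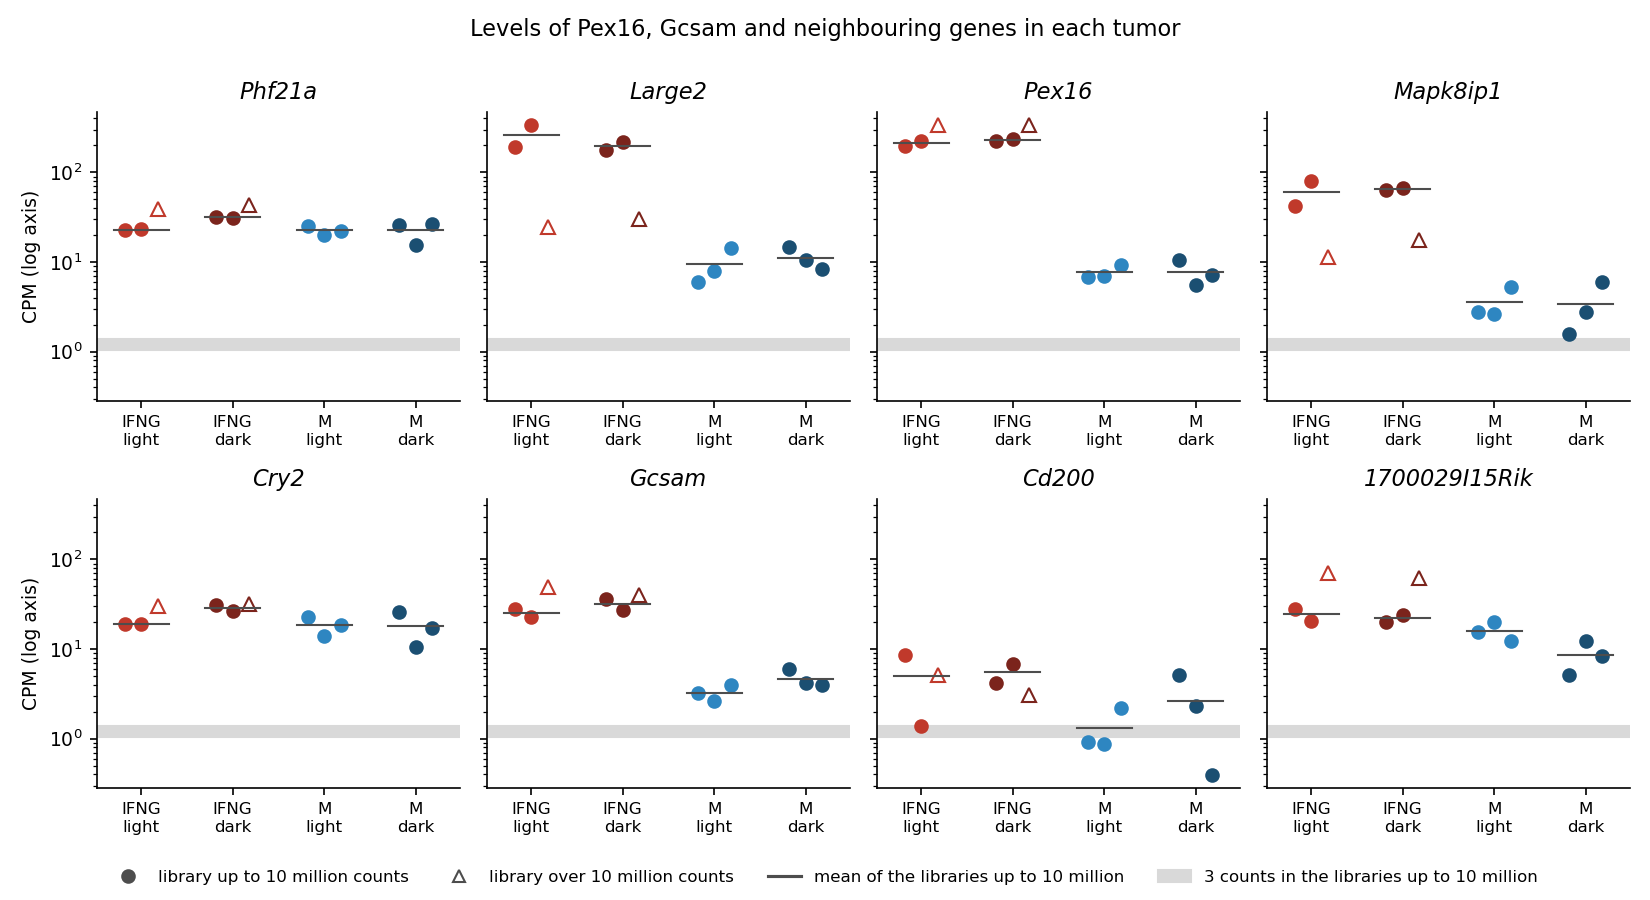
Level of each gene in each tumor (CPM, log axis) by group. Filled circles are libraries up to 10000000 counts, open triangles the deep pair, lines the means of the circles and the grey band 3 counts. Pex16, Large2, Mapk8ip1 and Gcsam are apart between the lines, Phf21a, Cry2 and Cd200 overlap, and the triangles of Large2 and Mapk8ip1 lie between the lines.

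Gcsam was low in P815-M and several times higher in P815-IFNG. It had 28.3 and 22.7 CPM in P815-IFNG light and 36.0 and 27.4 CPM in the dark. The P815-M tumors had, in light, 3.22, 2.63 and 3.94 CPM, and in dark 5.93, 4.14 and 3.98 CPM, which are 6 to 15 counts per library. The lines did not overlap. The means were 28.6 ± 5.49 CPM (SD, n = 4) and 3.97 ± 1.11 CPM (SD, n = 6), and the log2 fold change was 2.87 (SE 0.33) in light and 2.53 (SE 0.30) in dark, again the values on which the gene was chosen. The deep pair had 49.6 and 39.8 CPM, above every other library, and all 12 libraries gave 2.93 over light and dark, against 2.70 (SE 0.22) in the 10.

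Slc9c1, the gene just before Gcsam on the same strand, was hardly detected in any tumor. Of the 12 libraries, 4 held 1 count (P815-IFNG light replicate 1, P815-IFNG dark replicates 2 and 3, and P815-M light replicate 3) and the others held 0. A difference like that of Gcsam could not be measured in it at this depth, and no fold is given. BC016579, the first gene after Gcsam (3980 bases away, on the other strand), had 4, 4, 2 and 2 counts in the P815-IFNG libraries, 0 in all 6 P815-M libraries and 0 in both deep libraries. With libraries of P815-IFNG at or about the floor of 3 counts, no fold is given here either (edgeR adjusted p = 0.0665).

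Cd200, farther from Gcsam, had the largest standard error of the 6 tested genes. It had 8.60 and 1.39 CPM in P815-IFNG light and 4.19 and 6.85 CPM in P815-IFNG dark. The P815-M tumors had 0.920, 0.877 and 2.19 CPM in light and 5.14, 2.30 and 0.398 CPM in dark. Several of these values are at 5 counts or fewer, and the lines overlapped. The log2 fold change over light and dark was 1.34 (SE 0.59; 95% interval 0.07 to 2.60; edgeR adjusted p = 0.210), and 1.20 with all 12 libraries. The deep pair, where depth limits Cd200 less, held 5.08 and 3.07 CPM, inside the range of both lines.

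Per kilobase of annotated exon, the order of the levels in the 4 P815-IFNG libraries was Pex16 (124 CPM per kb), Large2 (39.5), Mapk8ip1 (13.7), Gcsam (8.35), Phf21a (3.19), Cd200 (1.58) and Slc9c1 (0.0475). In the 6 P815-M libraries Pex16 still led with 4.36 CPM per kb, but Phf21a came next with 2.65, followed by Large2 with 1.77, Gcsam with 1.16, Mapk8ip1 with 0.752 and Cd200 with 0.593. The deep pair put Gcsam second with 13.1 CPM per kb, behind Pex16 with 190.3, and Phf21a (4.84) and Large2 (4.70) side by side. No order of neighbours was tested.

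Beyond the listed genes, 23 others within 500 kb were tested, 13 around Pex16 and 10 around Gcsam. None of the 23 was called over light and dark by edgeR's test, where 1.49% of all tested genes were called. Of the 23, 5 had an unadjusted p under 0.05, as did 20.8% of all tested genes. Their log2 fold changes had a median of 0.04, the same to 2 decimals as that of all genes. Around Gcsam, Abhd10, an enzyme that removes fatty acids from proteins, was the only one of the 23 with every P815-IFNG library below every P815-M library, as were 1.49% of all tested genes. It had 0 to 3.61 CPM in P815-IFNG and 3.68 to 6.58 CPM in P815-M (log2 fold change -1.41, SE 0.50; edgeR adjusted p = 0.111, but called without P815-IFNG light replicate 1), and the deep pair held 16.1 and 14.6 CPM of it. Ccdc80, a protein of the extracellular matrix 482302 bases before Gcsam, was called in dark alone, with 46.1 and 81.2 CPM in P815-IFNG dark and 21.9 to 23.5 CPM in P815-M dark, higher by 1.29 on the log2 scale, and it lay at -0.03 in light. The plot of the difference by distance shows the tested genes of both windows.

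**Figure D4:**
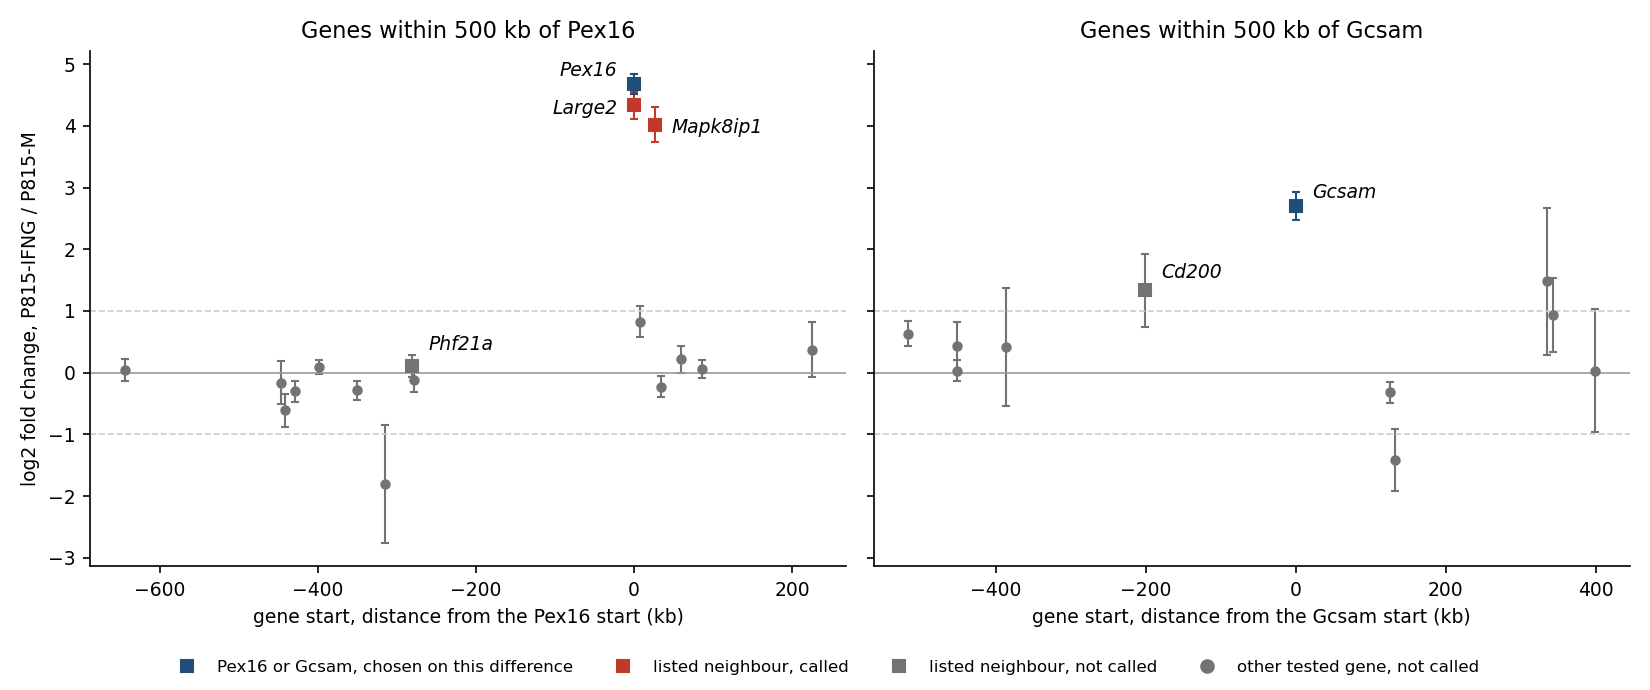
Log2 fold change of P815-IFNG over P815-M over light and dark (bars, 1 SE) by distance of the gene start from that of Pex16 (left) or Gcsam (right), for tested genes within 500 kb. Squares are the listed genes, with Pex16 and Gcsam, chosen on this difference, in blue and called neighbours in red, and BC016579 is left out. Pex16 and Gcsam lie at 4.68 and 2.70. Of the genes taken by position, Large2 (4.33) and Mapk8ip1 (4.02) were called and the others were not.

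Light changed none of these genes past the threshold in either line. Pex16 had means of 213 ± 18.5 CPM in light and 229 ± 6.07 CPM in dark in P815-IFNG (SD, n = 2 each), and 7.71 ± 1.30 and 7.78 ± 2.63 CPM in P815-M (SD, n = 3 each). Its log2 fold change of light over dark was 0.05 (SE 0.20; 95% interval -0.38 to 0.47; edgeR adjusted p = 0.958) in P815-IFNG and 0.01 (SE 0.26; edgeR adjusted p = 0.998) in P815-M. Both signs turned under other settings. For Gcsam the log2 fold change was -0.16 (SE 0.29; 95% interval -0.78 to 0.46; edgeR adjusted p = 0.886) in P815-IFNG, where the sign turned with all 12 libraries, and -0.49 (SE 0.36; edgeR adjusted p = 0.593) in P815-M.

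Of the neighbours, Large2 had the largest value in P815-IFNG, 0.59 (SE 0.29; 95% interval -0.03 to 1.21; edgeR adjusted p = 0.485), with light replicate 2 above the other libraries. Mapk8ip1 was at 0.06 (SE 0.35) in P815-IFNG and 0.06 (SE 0.52) in P815-M. Phf21a was at -0.30 (SE 0.27) and 0.02 (SE 0.22). The light effect differed between the lines by 0.04 (SE 0.33) for Pex16, 0.33 (SE 0.46) for Gcsam and 0.80 (SE 0.46; edgeR adjusted p = 0.707) for Large2, and none of the 6 tested genes was called for this interaction of line and light. Of all genes, 0.0059% were called for light in P815-IFNG, 0.939% in P815-M and 0.0118% for the interaction of line and light. The intervals of Pex16 and Phf21a leave room for changes of less than 2-fold by light in each line, and those of Cd200 for larger ones. In P815-IFNG the interval of Large2 also passed 2-fold (to 1.21 on the log2 scale). In P815-M those of Mapk8ip1 (-1.04 to 1.16) and Gcsam (down to -1.25) did so too.

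**Figure D5:**
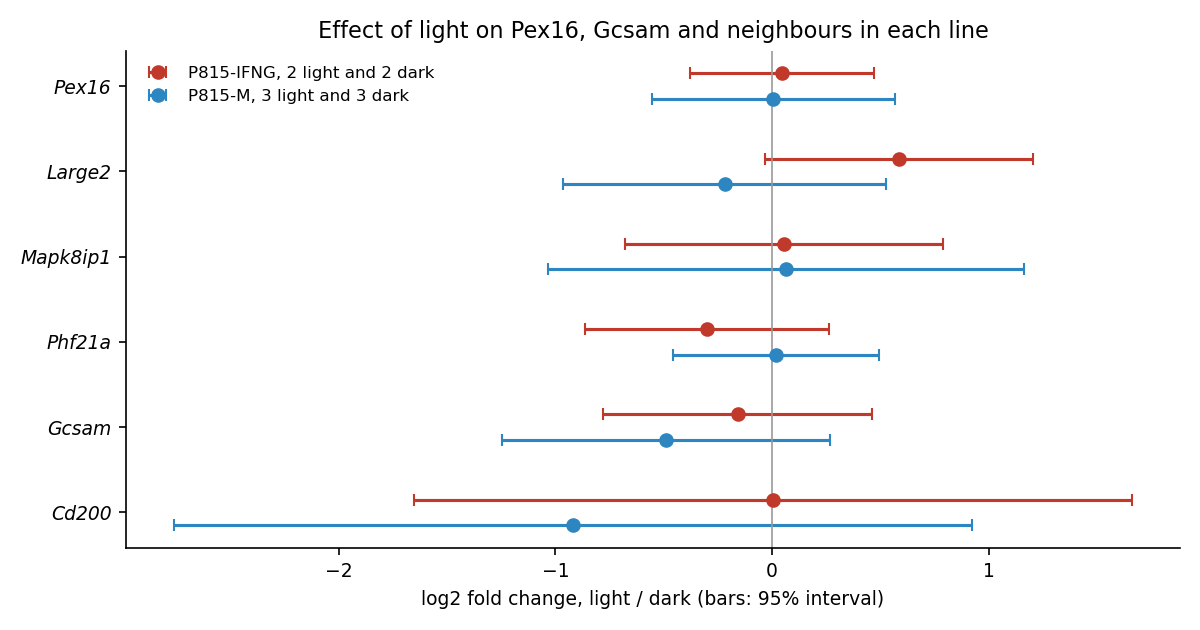
Log2 fold change of light over dark in P815-IFNG (2 light and 2 dark libraries) and P815-M (3 and 3) for the 6 tested genes, with bars of the 95% interval. All bars include 0, that of Large2 in P815-IFNG barely, and the bars of Cd200 are the widest.

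Neither of the partners of Pex16 was called between the lines. Pex19, the carrier of peroxisomal membrane proteins, had 24.3 ± 7.47 CPM (SD, n = 4) in P815-IFNG and 20.6 ± 7.64 CPM (SD, n = 6) in P815-M, which is 0.08 on the log2 scale (SE 0.25; edgeR adjusted p = 0.898). Pex3, its docking partner, had 3.28 ± 1.13 and 4.47 ± 1.31 CPM, with a log2 difference of -0.59 (SE 0.40; edgeR adjusted p = 0.448). Of 15 tested genes of peroxisome biogenesis and 28 of peroxisomal enzymes and transporters, 0 were called in any comparison of the lines by edgeR's test. Of all genes, 0.23% were called in either direction in light, 2.19% in dark and 1.49% over both. Their median log2 fold changes were 0.14 and 0.08, beside 0.04 over all genes. Acaa1a, a thiolase of fatty acid breakdown and the most abundant of the enzymes, was at -0.05.

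In the pathways of the neighbours, 1 gene was called between the lines over light and dark, where 1.49% of all genes were. Of 13 tested genes of dystroglycan glycosylation, the pathway of Large2, 0 were called, and the most abundant, B3galnt2, was at -0.24 (SE 0.12). Of 14 genes of the JNK pathway, for which Mapk8ip1 is a scaffold, 0 were called. Map3k12, the row with the most counts of that list in the 10 libraries, was at -0.30 (SE 0.13). It averaged 1259 CPM in the 10, whereas the whole JNK list summed to only 1070 to 1128 CPM in the deep pair. What the Map3k12 row counts was not tested. Of 14 genes of the LSD1-CoREST complex 1 was called: Phf21b, the paralog of Phf21a, had 13.2 ± 2.25 CPM (SD, n = 4) in P815-IFNG and 6.22 ± 2.83 CPM (SD, n = 6) in P815-M, so that it was higher by 1.03 on the log2 scale (SE 0.28; edgeR adjusted p = 0.0461). Gse1, the most abundant gene of that list, was at -0.13.

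None of 9 tested Slc9 exchangers was called, and none of 4 tested CD200 receptors, beside the same 1.49% of all genes. Their median log2 fold changes over light and dark were -0.18 and -1.44, beside 0.04 over all genes. The median of the receptors rests in part on rows that averaged 1.76 CPM or less in each line, near the floor. Cd200r1, the receptor of Cd200, was lower in P815-IFNG by less than the minimum fold change, with 10.6 ± 2.13 CPM (SD, n = 4) against 17.8 ± 5.25 CPM (SD, n = 6), with a log2 difference of -0.88 (SE 0.22; edgeR adjusted p = 0.0333). Whether these levels come from more cells of a type or more RNA per cell cannot be told apart in bulk tumors.

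Markers of B cells, in which Gcsam is best known, were measured beside it. Of 9 tested markers of germinal center B cells and 7 of B cells, 0 were called between the lines in light, dark or over both, and 1.49% of all genes were called over both. The part of B cells in the level of Gcsam was not tested. The summed level of the germinal center list was 101 to 186 CPM in P815-IFNG and 94.3 to 130 CPM in P815-M, Rgs13 was at 0 in all 10 libraries, and Gna13, the most abundant, was at 0.14. The B cell list summed to 19.5 to 37.5 CPM and 17.5 to 31.3 CPM, with Ebf1 the most abundant at 0.74 (SE 0.32; edgeR adjusted p = 0.192).

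Some markers of macrophages were higher in P815-IFNG in the dark, where 1.6% of all genes were called higher. Of 10 macrophage markers, C1qa, C1qb and C1qc (the parts of complement C1q) and Mertk (a receptor for dying cells) were called higher in P815-IFNG in dark, Mertk also over light and dark, and the list summed to 1738 to 2482 CPM there against 935 to 1079 CPM in P815-M dark. In light the ranges overlapped, at 1245 to 1383 CPM and 1239 to 1367 CPM, with 0 markers called. The part of these cells in the levels of the listed genes was not tested. Of 12 muscle markers Myh4 was called higher in dark, where the list summed to 201 to 930 CPM in P815-IFNG and 106 to 783 CPM in P815-M, with overlap. Of 12 T cell, 10 endothelial and 12 tested mast cell markers 0 were called in light, dark or over both. The endothelial list summed to 218 to 230.2 CPM in P815-IFNG dark and 54.9 to 141 CPM in P815-M dark, without overlap and with a median log2 fold change of 1.22. The mast cell sums of 2327 to 2910 CPM in P815-IFNG lay within the 2210 to 3713 CPM of P815-M. Cd247, Cd163 and Egfl7, the most abundant T cell, macrophage and endothelial markers, were at -0.09, 0.44 and 0.93 over light and dark, the last with an edgeR adjusted p of 0.00695. Cd247 averaged 188 CPM in the 10 libraries, far above the other T cell markers. The whole T cell list summed to only 32.5 to 41.2 CPM in the deep pair. What the Cd247 row counts was not tested.

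The profile most like that of Pex16 over the 10 libraries was sought among 11964 tested genes with a mean of at least 5 CPM. The closest by Pearson r of log2(CPM + 1) were Hecw1, a ubiquitin ligase (r = 0.996), GAVPO_bla (0.996), Large2 (0.988), Per1, a repressor of the circadian clock (0.983), and Gcsam (0.983). Mapk8ip1 ranked 8 with 0.970, while Phf21a ranked 3244 with 0.516 and Cry2 3019 with 0.534. For Gcsam they were Pex16 (0.983), Per1 (0.982), GAVPO_bla (0.982), Rapgef1, an activator of Rap proteins (0.980), and Hecw1 (0.978). These points fall into the 4 libraries of the one line and the 6 of the other, so that the order describes how cleanly a gene separates the lines. Hecw1, on chromosome 13, had 49.4 to 81.1 CPM in P815-IFNG, 0 to 0.438 CPM in P815-M, and 5.43 to 7.43 CPM in the deep pair. Per1 had 142 to 189.6 CPM and 34.1 to 51.0 CPM, and Rapgef1 277 to 350.2 CPM and 128 to 179 CPM.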

How the data were processed

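Tumor RNA of 12 DBA/2 mice was measured by RNA-seq. The authors trimmed the reads with fastp, aligned them with STAR 2.7.9a to mm10 plus the knock-in sequences and counted them per gene with HTSeq 0.13.5 at default settings; the deposited values are these raw counts in 32288 rows per library, before removal of mitochondrial genes and ComBat-seq. Rows of the same symbol were summed here, and 13 mitochondrial rows left out. CPM are counts per 1000000 of the rest. Genes with a total of at least 10 counts were fitted with R 4.3.3 and edgeR 4.0.16 (TMM, quasi-likelihood test, 1 mean per group, Benjamini-Hochberg adjustment over all genes) on the 10 libraries up to 10000000 counts, with SE taken from the F statistic and 95% intervals from the t distribution with edgeR's total degrees of freedom per gene. The code was tested on simulated data. The labels do not say that tumors of a group came from separate experiments, so p-values measure only the spread between these tumors, and count floors hold only counting error.

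The members and gene lists were chosen with earlier results of these data known. Genes are named where they are members, knock-in rows or mt-Nd6; where, within 500 kb, they were called between the lines, did not overlap between them or lie next to a member; where they are among the 5 closest profiles; and, of each list, the called genes, Pex3, Pex19 and the most abundant. Some genes that this rule names, and a search for motifs in the start windows, are not reported here. Positions came from the GRCm38 annotation by symbol. Alternatives were DESeq2 1.42.0 and its size factors, library totals, filterByExpr, no filter, mitochondrial rows kept, all 12 libraries (also with a batch term or ComBat-seq of sva 3.50.0, the deep pair as batch), fits on the compared libraries alone, a block for the replicate number, no minimum fold change, windows of 250 and 1000 kb, and each library left out.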

Additional observations from a re-analysis of the deposited data

Results flagged for a closer look

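The 2 libraries over 10000000 counts were left out of the main comparisons and entered only the alternatives with all 12 libraries, and several genes were above every P815-M library in them. Pex16 was at 334.3 CPM in P815-IFNG light replicate 3 and 341.3 CPM in P815-IFNG dark replicate 3, Gcsam at 49.62 and 39.81 CPM, Phf21a at 39.56 and 43.25 CPM, and 1700029I15Rik at 70.58 and 61.5 CPM, in the same order; all of these were also above the other P815-IFNG libraries. Large2 was at 24.39 and 30.49 CPM and Mapk8ip1 at 11.33 and 17.72 CPM, above P815-M but below the other P815-IFNG libraries. No P815-M library of that depth was analysed here, and the share of mt-Nd6 differed between the deep pair and the rest as given above. Its part in these levels was not tested.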

How the results depend on the processing

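The calls of Large2 and Mapk8ip1 kept their direction and side of the threshold in light, in dark and over both under every alternative but 1: with all 12 libraries and no batch term both lost all 3 calls, at log2 fold changes of 3.45 to 4.22 and 3.56 to 3.63. Leaving out each of the 10 libraries moved the values over light and dark to between 4.61 and 4.80 for Pex16, 2.60 and 2.78 for Gcsam, 4.08 and 4.53 for Large2, 3.73 and 4.35 for Mapk8ip1, 0.03 and 0.17 for Phf21a and 0.45 and 1.79 for Cd200, whose value in light fell to 0.03 without P815-IFNG light replicate 1. Of 496 values of the listed genes under an alternative, 469 were unchanged in sign and call, 6 lost the call, 20 changed sign and 1, Gcsam in light with all 12 libraries, moved to 3.19. The sign changes were all in values near 0 that were not called. The light value of Phf21a between the lines turned to 0.029 with library totals and 0.18 with all 12 libraries, and ranged from -0.13 to 0.082 with each library left out. The light effect on Pex16 in P815-IFNG turned to -0.11 with library totals. In P815-M it turned to -0.025 with library totals and -0.021 with ComBat-seq, and its difference between the lines turned to -0.083 with library totals and -0.015 with all 12 libraries. That of Gcsam in P815-IFNG turned to 0.050 with all 12 libraries and 0.028 with the batch term. With each library left out, the light effect on Pex16 ranged from -0.088 to 0.17 in P815-IFNG and from -0.14 to 0.26 in P815-M, its difference between the lines from -0.21 to 0.19, and the light effect on Gcsam in P815-IFNG from -0.29 to 0.019.

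Counts of called genes over the whole table moved more; the cause was not tested. Between the lines in light, 39 genes were called, against 74 by DESeq2, 257 with no filter, 3 with all 12 libraries, 82 with the batch term and 272 with ComBat-seq. In dark, 371 were called, against 596 with library totals (552 of them higher, where 271 of the 371 were), 866 with no filter, 2 with all 12 libraries, 577 with ComBat-seq and 152 with only the libraries compared. Over both, 252 were called, against 477 with no filter, 17 with all 12 libraries, 618 with ComBat-seq and 864 with no minimum fold change. For light in P815-IFNG, 1 gene was called, against 2 with library totals, 18 by DESeq2, 0 with filterByExpr, 341 with no filter, 0 with all 12 libraries, 2 with the batch term, 175 with ComBat-seq and 0 with only the libraries compared. In P815-M, 159 were called, against 475 with no filter, 0 with all 12 libraries, 260 with ComBat-seq and 245 with only the libraries compared. For the interaction of line and light, 2 were called, against 8 with library totals, 26 by DESeq2, 0 with filterByExpr, 298 with no filter, 0 with all 12 libraries and 49 with ComBat-seq. Of the 23 other genes within 500 kb, 0 were called over both, beside 1.49% of all genes. With no filter and with ComBat-seq 1 of them was called, Abhd10.

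With each library left out, the counts ranged from 17 to 46 in light, with 17, 21 and 18 without P815-IFNG light replicate 1 and P815-M light replicates 1 and 2. In dark they ranged from 145 to 416, with 247, 145, 243, 150 and 159 without P815-IFNG dark replicates 1 and 2, P815-M light replicate 2 and P815-M dark replicates 2 and 3. Over both they ranged from 102 to 327, with 102 and 147 without P815-IFNG light replicate 1 and P815-M light replicate 2. For light in P815-M they ranged from 18 to 230, with 18, 44, 37, 60 and 76 without light replicates 1 and 2 and dark replicates 1, 2 and 3 of that line. They ranged from 0 to 9 for light in P815-IFNG and from 0 to 3 for the interaction. Of the genes within 500 kb, 0 to 1 were called: Abhd10 (log2 fold change -3.86) without P815-IFNG light replicate 1 and 1700029I15Rik (1.04) without P815-M dark replicate 2. A lone library of a group is there taken to vary like the others. The labels give replicate numbers, and 13 pairs of tumors from different groups share one. The correlation of their deviations was -0.24 to 0.16, and 11 were at or below 0.1. In groups of 2 libraries the deviations from the mean are mirror images, so these pairs are not independent. Whether the numbers pair the tumors cannot be decided from them. With the number as a replicate block 5 genes were called for light in P815-IFNG, 253 in P815-M and 14 for the interaction, and no call of a listed gene changed. Depth limits Slc9c1 and BC016579 most, whose values lie at or near 3 counts, and Cd200 next.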

Other observations

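Runs of neighbouring genes called in the same direction were counted over the whole genome, a description added after the values were seen, with Pex16 and Gcsam left out because they were chosen on this difference. Of the 244 other genes called between the lines over light and dark that have a position, 37 lay in 18 runs of at least 2 genes with gaps of at most 50 kb. The share of runs among all tested genes was not computed. Some runs are genes that overlap on opposite strands, whose RNA cannot be told apart in these counts. Large2 and Mapk8ip1 on chromosome 2 formed a run of 2, and 1 run held 3 genes, Akr1c13, Akr1c19 and Akr1c12 on chromosome 13. These are aldo-keto reductases of 1 gene family with log2 fold changes of 2.86, 3.11 and 6.61. How reads of such near copies were assigned was not tested, so the values of single Akr1c genes are uncertain.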
